A study of Danio rerio with 24 samples.

Results

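The genes described here are 10 markers of microglia and macrophages, namely csf1ra, csf1rb, p2ry12, slc7a7, lcp1, mpeg1.1, c1qa, c1qb, c1qc and apoeb, measured in the adult zebrafish brain. A gene was taken as a member where its Ensembl identifier carried one of these symbols, whatever the case. This matching used no expression value, but the 10 symbols were chosen with earlier results of these data known. Of the 10 members, 9 were matched to 1 identifier each among the 37241 genes in the count table, and 8 had enough reads to be tested (10 or more in each of 3 or more libraries, which held for 23641 genes). Poly(A) RNA was sequenced from dissected whole brains, with 3 libraries per genotype, and the values below are those of 4 double-mutant neurexin lines and of wild type (wt), 15 libraries among 24. The lines were nrxn2a_full-nrxn2b_full, nrxn2a_tmr-nrxn2b_tmr, nrxn3a_full-nrxn3b_full and nrxn3a_tmr-nrxn3b_tmr, called here nrxn2 full, nrxn2 tmr, nrxn3 full and nrxn3 tmr. Both paralogs of a neurexin, a presynaptic adhesion molecule, were deleted with CRISPR/Cas9 in each line: the whole locus in "full" and the transmembrane region on the last exon in "tmr". Lines and wt shared the AB background. The mutants were homozygotes from at most 2 generations of homozygous inbreeding, so a line stands for its own deletion and its own recent inbreeding together. All fish were adults whose eyes were removed before the brain was taken. The age and sex of the fish, and whether a library holds 1 brain or several, are not given in the sources used here, so each p-value rests on how far libraries of 1 genotype differ.

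Microglia are the resident macrophages of the brain. They live on signals through the CSF1 receptor, whose ligands are CSF1 and IL34 and which the zebrafish carries as the paralogs csf1ra and csf1rb. They also sense nucleotides, clear dying cells and, in the mouse, remove synapses that complement C1q has marked. Several of the markers are not particular to microglia: csf1ra also serves pigment cells of the zebrafish skin, lcp1 is found in leukocytes at large, and apolipoprotein E is also made by other glia of the mammalian brain. In whole-brain RNA, fewer microglia and less of a transcript per microglial cell cannot be told apart.

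Depth was similar across libraries, with total counts between 28512102 and 39342435. In the full lines the deleted genes fell to 8.65% of the wt mean for nrxn2a, 30.3% for nrxn2b and 0.0427% for nrxn3b. Some nrxn2b reads thus remained in nrxn2 full, and nrxn3a was not matched by symbol and not checked. Gene totals cannot check a tmr deletion of part of 1 exon. All values below are normalised read counts (raw counts divided by DESeq2 size factors), which compare 1 gene between libraries but not different genes with each other. Fold changes, their standard errors and confidence intervals come from 1 edgeR quasi-likelihood fit of all 24 libraries. Adjusted p-values (adjusted p) are Benjamini-Hochberg values over all 23641 genes tested, and "called" means that this value was below 0.05. The same 3 wt libraries, replicates 1, 3 and 5, stand behind every comparison of a line with wt.

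csf1ra (ENSDARG00000102986), 1 of the paralogs of the CSF1 receptor kinase, had a lower mean in each of the 4 lines than in wt, and in none of them did the difference pass the test over all genes. nrxn3 full libraries had 303, 260 and 419 normalised counts, against 541, 547 and 487 in wt libraries. The groups did not overlap. Mean levels were 327.4 ± 82.1 in nrxn3 full and 524.9 ± 32.9 in wt (SD, n = 3 each), so that nrxn3 full held 62.4% of the wt level. The log2 fold change was -0.68 (SE 0.22, 95% interval -1.15 to -0.21, adjusted p = 0.071). In that comparison 8.13% of all genes tested were called. Without nrxn3 full replicate 4, the library at 419, the change was -0.90 and was called (adjusted p = 0.0385), beside 1243 of 23572 genes. It was -0.63 without replicate 2 (adjusted p = 0.196) and -0.54 without replicate 3 (adjusted p = 0.253), and was not called. DESeq2 called it with all libraries (adjusted p = 0.0335).

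nrxn3 tmr stood closest to wt. It had 418, 509 and 510 csf1ra counts, or 91.3% of the wt mean, and overlapped wt (log2 fold change -0.13, 95% interval -0.60 to 0.34, adjusted p = 0.811). nrxn3 full over nrxn3 tmr gave -0.55 (95% interval -1.02 to -0.08), with an adjusted p of 0.204.

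The nrxn2 lines had the same mean and unlike spreads. nrxn2 full had 607, 368 and 245 csf1ra counts, so that the highest and the lowest value of all 24 libraries came from 1 genotype. nrxn2 tmr had 424, 422 and 372 and lay below wt without overlap. Their log2 fold changes against wt were both -0.37, with adjusted p = 0.311 in nrxn2 full and 0.354 in nrxn2 tmr. Without nrxn2 full replicate 1, the library at 607, the change in nrxn2 full was -0.77 and was called (adjusted p = 0.00722). Leaving out that library also raised the number of all genes called, from 2282 of 23641 to 4558 of 23563. Without replicate 3, the library at 245, the csf1ra change was -0.11 (adjusted p = 0.836). nrxn2 full over nrxn2 tmr gave 0.00 (95% interval -0.46 to 0.47).

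**Figure D1:**
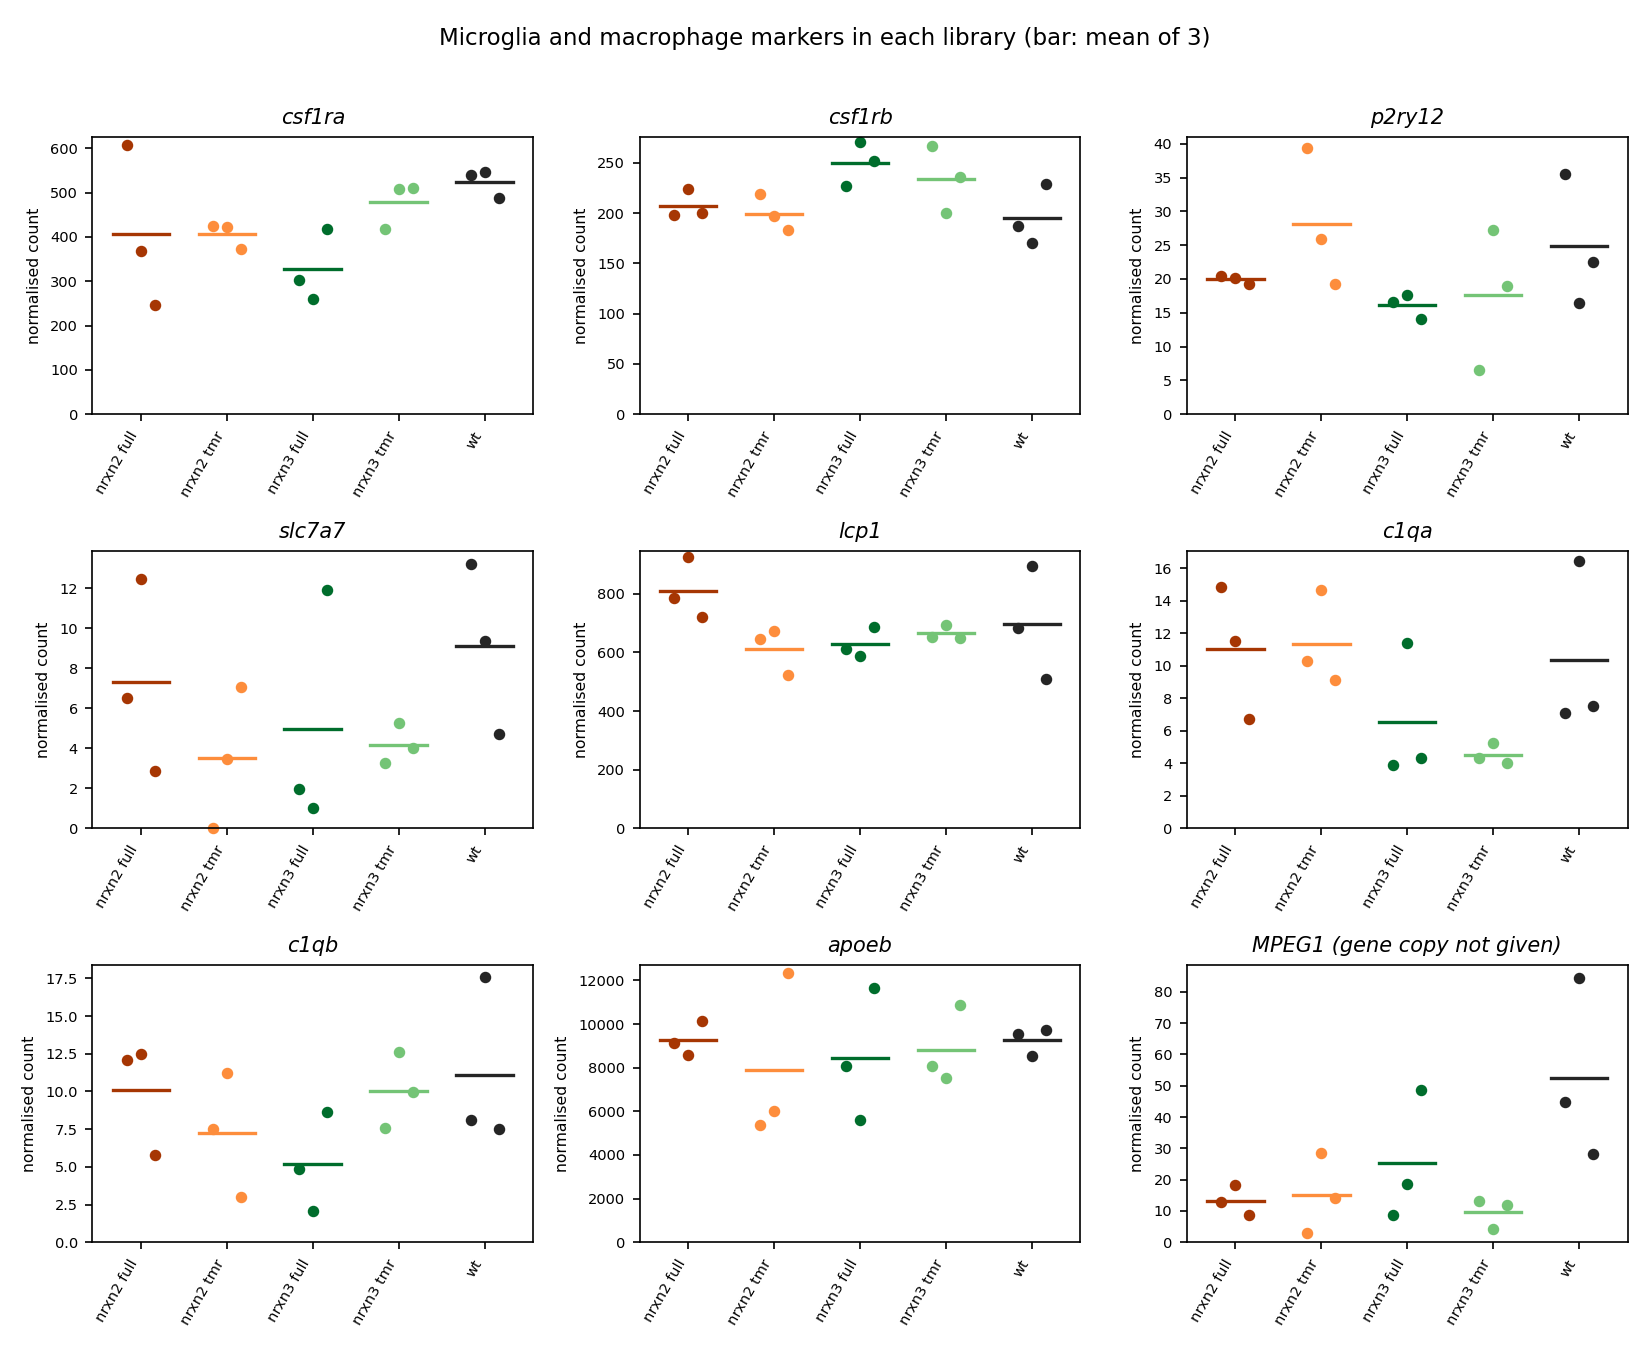
Normalised read counts (y axes, linear from 0, 1 panel per gene) of 8 members and of 1 MPEG1 gene in the 15 libraries of 4 lines and wt, by genotype on the x axis. Each point is a library and each bar the mean of 3. csf1ra libraries of nrxn3 full sit between 260 and 419 and those of wt between 487 and 547, while the csf1rb points of all 5 genotypes lie between 170.2 and 271.

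The order of csf1ra means ran from nrxn3 full (327.4) through nrxn2 tmr (406.2), nrxn2 full (406.9) and nrxn3 tmr (479.0) to wt (524.9). Each neighbouring pair in this order had overlapping libraries.

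Photoreceptor transcripts were read in the same groups. Of 9 identifiers in a retina list, 1 was called lower than wt in nrxn3 full and 0 were called in the other lines. The 1 called was opn1lw2, and its call held in 6 of 14 alternative fits. Summed normalised counts of 5 retina markers, gnat1, gnat2 and 3 cone opsins, were 120 to 1993 in nrxn3 full, 165 to 2068 in nrxn2 tmr, 108 to 4666 in nrxn2 full and 139 to 5732 in nrxn3 tmr, against 2932 to 12773 in wt. nrxn3 full and nrxn2 tmr lay wholly below wt, and nrxn2 full and nrxn3 tmr overlapped it. With the log2 of this sum as a covariate, a fit chosen after the data were seen, the csf1ra change was -0.48 in nrxn3 full (adjusted p = 0.325). It was -0.22 in nrxn2 tmr, -0.21 in nrxn2 full and 0.05 in nrxn3 tmr. Median sums were 146 to 1775 in the lines and 11086 in wt, so this fit cannot fully separate genotype from retina signal. All genes called against wt also fell, from 2282 to 956 in nrxn2 full, 2004 to 1548 in nrxn2 tmr, 1923 to 1134 in nrxn3 full and 1730 to 1168 in nrxn3 tmr.

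csf1rb (ENSDARG00000053624), the other CSF1 receptor paralog, did not follow csf1ra. Its 15 values lay between 170.2 and 271, a 1.59-fold range. The highest mean and the highest single value were in nrxn3 full, which had 228, 271 and 252, against 187, 170.2 and 229 in wt. The groups overlapped by 1 library each, and the log2 fold change was 0.35 (SE 0.16, 95% interval 0.02 to 0.69, adjusted p = 0.197). The signs of csf1ra and csf1rb were thus opposite in nrxn3 full, as they were in the other lines, all against the same wt libraries. The difference between the paralogs was examined only through their ratio, given below. nrxn3 tmr had 267, 200.3 and 236 (log2 fold change 0.26, adjusted p = 0.385), and in the nrxn2 lines the changes were 0.09 in nrxn2 full and 0.03 in nrxn2 tmr. The order of means ran from wt (195.5) to nrxn3 full (250.2), with every neighbouring pair overlapping.

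**Figure D2:**
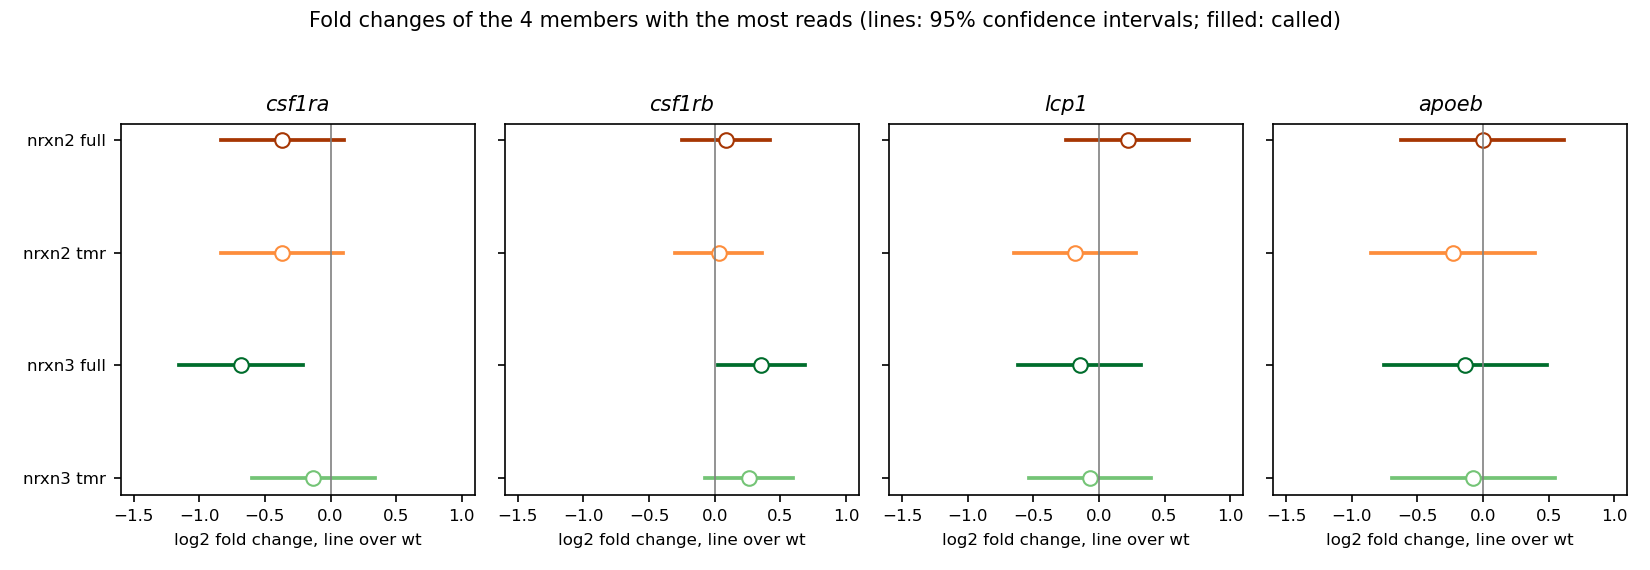
Log2 fold changes of each of 4 lines over wt (x axis) for csf1ra, csf1rb, lcp1 and apoeb, 1 row per line, with 95% confidence intervals as horizontal lines and a grey line at 0. Points are open because none passed the test over all genes, and csf1ra points run between -0.68 and -0.13.

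Because both paralogs were read in each library, their ratio is free of the scaling between libraries. Its size also depends on transcript length, so only its change between genotypes is of use. The csf1ra count over the csf1rb count was 1.33, 0.962 and 1.66 in nrxn3 full, against 2.89, 3.21 and 2.12 in wt, without overlap. nrxn2 full (1.23 to 3.06), nrxn2 tmr (1.94 to 2.14) and nrxn3 tmr (1.57 to 2.54) overlapped wt. An exact permutation test of the log2 ratio against wt gave p = 0.1 in nrxn3 full, 0.3 in nrxn2 full, 0.2 in nrxn2 tmr and 0.3 in nrxn3 tmr. With 3 libraries against 3 this test cannot go below a p of 0.1, so the ratio is given as a description.

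**Figure D3:**
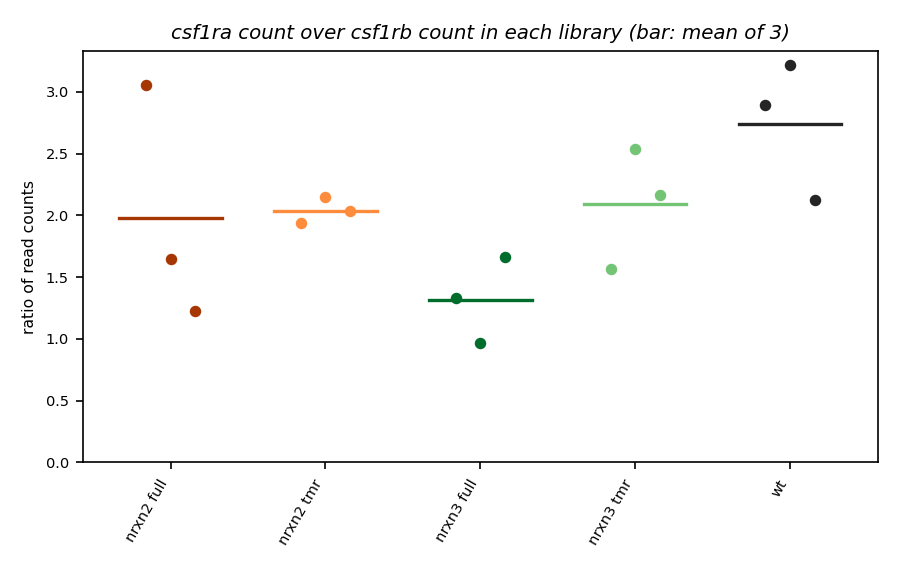
The csf1ra read count divided by the csf1rb read count (y axis, linear from 0) in the 15 libraries of 4 lines and wt, by genotype. Points are libraries and bars are means of 3. wt libraries lie between 2.12 and 3.21, and all 3 libraries of nrxn3 full lie below them.

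p2ry12 (ENSDARG00000069945), the ADP receptor by which ramified microglia sense injury, was counted at 6 to 42 reads per library. nrxn3 full had 16.6, 17.6 and 14.1 normalised counts, against 35.6, 16.4 and 22.6 in wt. All 4 lines overlapped wt, whose own libraries spanned most of the range. nrxn3 full had the lowest mean, with a log2 fold change of -0.63 (95% interval -1.50 to 0.25, adjusted p = 0.429). nrxn2 tmr had the highest, at 39.4, 25.9 and 19.2.

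slc7a7 (ENSDARG00000055226), a transporter of cationic amino acids that zebrafish microglial precursors need to settle in the brain, had 0 to 13 reads per library. nrxn2 tmr had 0, 3.45 and 7.08 normalised counts, against 13.2, 9.39 and 4.70 in wt. The groups overlapped, with 11 reads in nrxn2 tmr (95% exact Poisson interval 5.49 to 19.7) and 26 in wt (16.98 to 38.1), and the log2 fold change of -1.36 was not called (SE 0.93, adjusted p = 0.433). wt had the highest mean of the 5 genotypes. The library without a read was nrxn2 tmr replicate 1, where a count of 0 allows up to 3 reads. Such intervals cover counting error only.

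lcp1 (ENSDARG00000023188), which encodes the actin-bundling L-plastin of leukocytes, was well counted, at 516 to 963 reads per library. nrxn2 full had 786, 926 and 721 and the highest mean (811 ± 105), against 683, 897 and 511 in wt (mean 697 ± 193). All 4 lines overlapped wt, whose own libraries spanned more than the 5 group means did. The log2 fold changes ran from -0.18 in nrxn2 tmr (95% interval -0.65 to 0.28, adjusted p = 0.704) to 0.22 in nrxn2 full (interval -0.25 to 0.68, adjusted p = 0.574). nrxn2 full over nrxn2 tmr, which had 647, 672 and 522, gave 0.40 (adjusted p = 0.258), without overlap of the libraries.

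For mpeg1.1, a gene of the pore-forming perforin-2 family widely used to mark zebrafish macrophages, no identifier carried the exact symbol. Of 3 identifiers with the symbol MPEG1, ENSDARG00000078569 had 0 reads and ENSDARG00000055290 had 1 read in 1 library. ENSDARG00000043093 had 686 reads over all 24 libraries, and which of the fish copies it is could not be settled from the tables at hand, so it is given beside the members and not counted among them. nrxn3 tmr had 13.03, 4.195 and 11.98 normalised counts, against 44.7, 84.5 and 28.2 in wt. nrxn2 full had 13.0001, 18.3 and 8.66, and like nrxn3 tmr it lay wholly below wt. Log2 fold changes were -2.41 in nrxn3 tmr (SE 0.76, adjusted p = 0.061) and -1.97 in nrxn2 full (SE 0.73, adjusted p = 0.0977). They were -1.77 in nrxn2 tmr (SE 0.73, adjusted p = 0.147) and -1.05 in nrxn3 full (SE 0.71, adjusted p = 0.438), whose libraries overlapped wt. The mean was thus lower than in wt in each line, and no change was called.

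The chains of complement C1q, the recognition molecule of the classical pathway, were close to the limit of detection. c1qb (ENSDARG00000044612), c1qc (ENSDARG00000095627) and c1qa (ENSDARG00000044613) are consecutive rows on 1 chromosome in the RefSeq gene table of another assembly, GRCz12tu. c1qc had no read in any of the 24 libraries, among 816278151 counts, which allows up to 3 reads in all. Since c1qa and c1qb were counted in every library, the 0 for c1qc is given as listed and not as absence of its transcript. c1qa had 4 to 17 reads per library, and c1qb 2 to 15.

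c1qa was lowest in nrxn3 tmr, at 4.34, 5.24 and 3.99 normalised counts, against 7.11, 16.4 and 7.52 in wt. The libraries did not overlap, and the group totals were 13 reads (95% exact Poisson interval 6.92 to 22.2) and 29 reads (19.4 to 41.6). The log2 fold change was -1.16 (95% interval -2.35 to 0.03, adjusted p = 0.251). c1qb was lowest in nrxn3 full, at 4.88, 2.07 and 8.66, against 8.13, 17.6 and 7.52 in wt. These libraries overlapped, and the change of -1.07 was not called (SE 0.72, adjusted p = 0.435).

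apoeb (ENSDARG00000040295), which encodes a lipid-carrying apolipoprotein E and is used as a microglial marker in zebrafish larvae, had 5411 to 12224 reads per library. nrxn2 tmr had 5352, 6035 and 12357 normalised counts, against 9538, 8556 and 9740.45 in wt. nrxn2 tmr and nrxn3 full (8100, 5593 and 11659) each held values on both sides of wt. The lowest mean was that of nrxn2 tmr, with a log2 fold change of -0.23 (95% interval -0.85 to 0.39, adjusted p = 0.723), and nrxn2 full stood at 99.9% of wt. The order of means ran from nrxn2 tmr (7915) to wt (9278), and every neighbouring pair overlapped.

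Counted together, none of the 8 members tested was called against wt in nrxn2 full (9.65% of all genes called), nrxn2 tmr (8.48%), nrxn3 full (8.13%) or nrxn3 tmr (7.32%). At an unadjusted p under 0.05 there were 2 members in nrxn3 full, csf1ra and csf1rb, and 0 in the other 3 lines. This held for 21.6% of all genes in nrxn3 full and for 20.9% to 26% in the others. The MPEG1 gene, not counted among the 8, had an unadjusted edgeR p under 0.05 in nrxn2 full (0.0153), nrxn2 tmr (0.025) and nrxn3 tmr (0.00507). DESeq2 called 1 member, csf1ra, in nrxn3 full and 0 in the other 3 lines, beside 11.6% of all genes it tested in nrxn3 full. In nrxn3 full, neither share of 8 members stands far from that of all genes. None of the 8 differed between the full and tmr lines of nrxn2 or nrxn3, where 11.9% and 4.77% of all genes were called. There DESeq2 also called 0 members, beside 16.7% of all genes for nrxn2 and 7.82% for nrxn3. csf1ra in nrxn3 full over nrxn3 tmr was the only member with an unadjusted p under 0.05. This held for 27% of all genes for nrxn2 and 16.4% for nrxn3.

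Libraries that did not overlap wt, in either direction, were found for 0 members in nrxn2 full (24.4% of all genes did not overlap), 1 in nrxn2 tmr (28.3%), 1 in nrxn3 full (27.6%) and 1 in nrxn3 tmr (25.2%). These shares of 8 members are no higher than those of all genes. The median log2 fold change of the 8 members was -0.06 in nrxn2 full, -0.21 in nrxn2 tmr, -0.63 in nrxn3 full and -0.13 in nrxn3 tmr, beside medians of all genes between -0.01 and 0.00. The nrxn3 full median lay between p2ry12 (-0.63) and c1qa (-0.64), which had few reads. There the well-counted members stood at -0.68 (csf1ra), 0.35 (csf1rb), -0.15 (lcp1) and -0.13 (apoeb). Of the 8 fold changes, 7 were negative in nrxn3 full and in nrxn3 tmr, and 5 in each nrxn2 line.

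The members varied together only in part. Across the 15 libraries, which share their scaling and their genotypes, lcp1 and c1qb had a Pearson r of 0.71 and a Spearman coefficient of 0.76. csf1ra and c1qb had an r of 0.71 (Spearman 0.65), and csf1ra and csf1rb an r of -0.36 (Spearman -0.39). slc7a7 and the MPEG1 gene had an r of 0.66 (Spearman 0.59), whereas c1qa and c1qb had one of 0.19 (Spearman 0.31). apoeb and c1qa had an r of -0.38 (Spearman -0.30). These correlations are descriptions and were not tested, and those of c1qa, c1qb and slc7a7 rest on few reads.

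**Figure D4:**
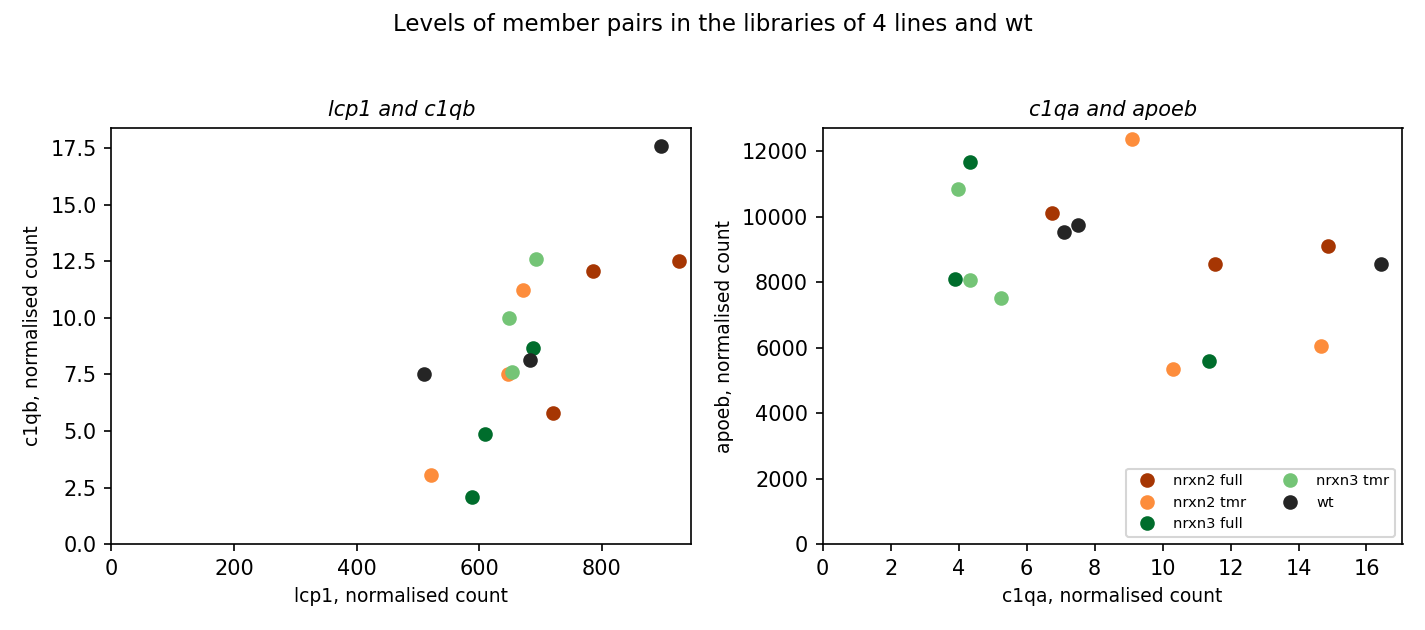
Normalised read counts of lcp1 (x axis) and c1qb (y axis), left, and of c1qa (x axis) and apoeb (y axis), right, in the 15 libraries of 4 lines and wt, with colours for genotypes. On the log2 scale lcp1 and c1qb have an r of 0.71, and c1qa and apoeb one of -0.38.

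The genes whose pattern over all 24 libraries was nearest to each well-counted member were sought among 15600 genes. Those searched carried a symbol and had a mean of at least 50 normalised counts. For lcp1 the nearest were ARPC1B, an actin-nucleation subunit (r = 0.84, Spearman 0.81), ARHGAP45 (r = 0.82, Spearman 0.79) and zgc:64051 (r = 0.77, Spearman 0.60). For csf1ra they were pgbd4 (r = 0.82, Spearman 0.80), CDK20 (r = 0.74, Spearman 0.59) and COQ8B (r = 0.73, Spearman 0.67). csf1rb was nearest to pdgfba, a PDGF ligand (r = 0.70, Spearman 0.64), tmem269 (r = 0.67, Spearman 0.67) and KLF6 (r = 0.65, Spearman 0.58). apoeb was nearest to the mitochondrial genes SUCLG1 (r = 0.76, Spearman 0.77) and UQCRFS1 (r = 0.74, Spearman 0.74), and to TBCK (r = 0.73, Spearman 0.64). Each r was picked as among the highest of 15600 over 24 libraries, so its size alone does not show a link between genes. Whether unrelated genes would reach such values was not tested.

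Around the receptor, the ligands, transcription factors and signalling partners of CSF1R were looked up as a list of 21 symbols, of which 18 were matched and tested. In nrxn2 tmr 2 were called higher and 1 lower (3.71% and 4.77% of all genes), and 0 were called in the other 3 lines against wt. irf8, a transcription factor that macrophages need, was the one called lower: nrxn2 tmr had 177, 170 and 141 normalised counts, against 360, 379 and 198 in wt. The groups did not overlap, although wt replicate 5 stood far below the other wt libraries. The log2 fold change was -0.94 (SE 0.23, adjusted p = 0.0154), and the call was lost without wt replicate 1 (adjusted p = 0.0607), wt replicate 3 (0.0698) or nrxn2 tmr replicate 3 (0.0735), with only the groups compared in the fit (0.114), and with the wider control of wt and the lines of other neurexins together, where the change was -0.40 (0.214). nrxn2 full had 249, 375 and 292, so that nrxn2 full over nrxn2 tmr gave 0.91 (SE 0.23, adjusted p = 0.0163), lost without nrxn2 tmr replicate 3 (0.0708) or nrxn2 full replicate 2 (0.0832).

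Of the ligands of the receptor, csf1a, csf1b and il34, only csf1a in nrxn2 tmr was called against wt. il34, which neurons make in the mammalian brain, averaged 160 ± 14.3 in nrxn3 full and 163 ± 37.97 in wt (SD, n = 3 each), with a log2 fold change of -0.03 (SE 0.22, adjusted p = 0.966). In the other 3 lines the il34 changes lay between -0.11 and 0.05. csf1b had changes of 0.20 to 0.99, none called (adjusted p = 0.148 in nrxn3 tmr, which had the highest). csf1a had 344, 310 and 232 normalised counts in nrxn2 tmr, against 176, 144 and 124 in wt (log2 fold change 0.99, SE 0.25, adjusted p = 0.0171). This call was lost without any of nrxn2 tmr replicates 1 and 2 and wt replicates 3 and 5 (adjusted p up to 0.074). nrxn3 full had 191, 285 and 211 csf1a counts, above all wt libraries, and a change of 0.63 that was not called (adjusted p = 0.132). The kinase btk was called higher in nrxn2 tmr (16.2 to 29.3 counts, against 4.07 to 4.70 in wt), a call that held in 5 of 13 alternatives and was lost without any 1 library of either group. The macrophage factor spi1a averaged 288 ± 68.4 in nrxn3 full and 273 ± 48.2 in wt, a change of 0.08 (SE 0.17, adjusted p = 0.849).

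Among 50 further genes of microglia and macrophages, 39 identifiers were tested. The counts called higher and lower were 2 and 2 in nrxn2 full (4.57% and 5.08% of all genes), 1 and 4 in nrxn2 tmr (3.71% and 4.77%), 1 and 2 in nrxn3 full (3.95% and 4.19%) and 0 and 2 in nrxn3 tmr (3.61% and 3.71%). The list median was 0.12 in nrxn2 full, -0.25 in nrxn2 tmr, -0.22 in nrxn3 full and -0.08 in nrxn3 tmr. hexb, a lysosomal hexosaminidase and a stable marker of microglia in the mouse, was called lower in both nrxn2 lines. nrxn2 full had 2178, 1963 and 2019 normalised counts of hexb and nrxn2 tmr 2134, 2247 and 2187, against 2755, 3344 and 2780 in wt. Neither line overlapped wt, and the changes were -0.53 in nrxn2 full (SE 0.12, adjusted p = 0.00921) and -0.44 in nrxn2 tmr (SE 0.12, adjusted p = 0.0282). No single library ended the call in nrxn2 full, but the wider control did (adjusted p = 0.162). The call in nrxn2 tmr was lost without any 1 of its own libraries or wt replicate 3, with the replicate block, the retina covariate and the wider control (0.636).

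havcr1, a receptor of the TIM family for phosphatidylserine on dying cells, had 144, 159 and 133 normalised counts in nrxn2 tmr, against 277, 227 and 265 in wt. The line lay wholly below wt, with a log2 fold change of -0.82 (SE 0.22, adjusted p = 0.0264). This call held in 8 of 14 alternatives and was lost without any 1 nrxn2 tmr library, wt replicate 1 or wt replicate 5, and with the wider control (adjusted p = 0.259). tnfrsf1b, a TNF receptor, went the other way: nrxn2 tmr had 179, 179 and 172, against 24.4, 38.7 and 74.3 in wt (log2 fold change 1.94, SE 0.45, adjusted p = 0.0113). It was also called higher in nrxn2 full (1.67) and nrxn3 full (1.86). Without wt replicate 1 none of these tnfrsf1b calls held, without wt replicate 3 those of nrxn2 full and nrxn3 full did not, and without nrxn2 full replicate 3 that of nrxn2 full did not. The calls in nrxn2 full and nrxn3 full were also lost with the retina covariate, the wider control and only the groups compared.

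Some genes in this list were present in some lines and nearly silent in others. ncf4, a subunit of the phagocyte NADPH oxidase, had 1.87, 1.73 and 2.02 normalised counts in nrxn2 tmr and 119, 73.0 and 79.9 in nrxn2 full, against 19.3, 18.8 and 44.2 in wt. tspan36, a tetraspanin also known from pigment cells, was listed at 0 in all 3 nrxn3 tmr libraries and at 0.929, 0.961 and 0 in nrxn2 full, against 285, 254 and 221 in wt. Within nrxn3 full tspan36 stood at 1.95, 85.8 and 118, so that libraries of 1 line differed.

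**Figure D5:**
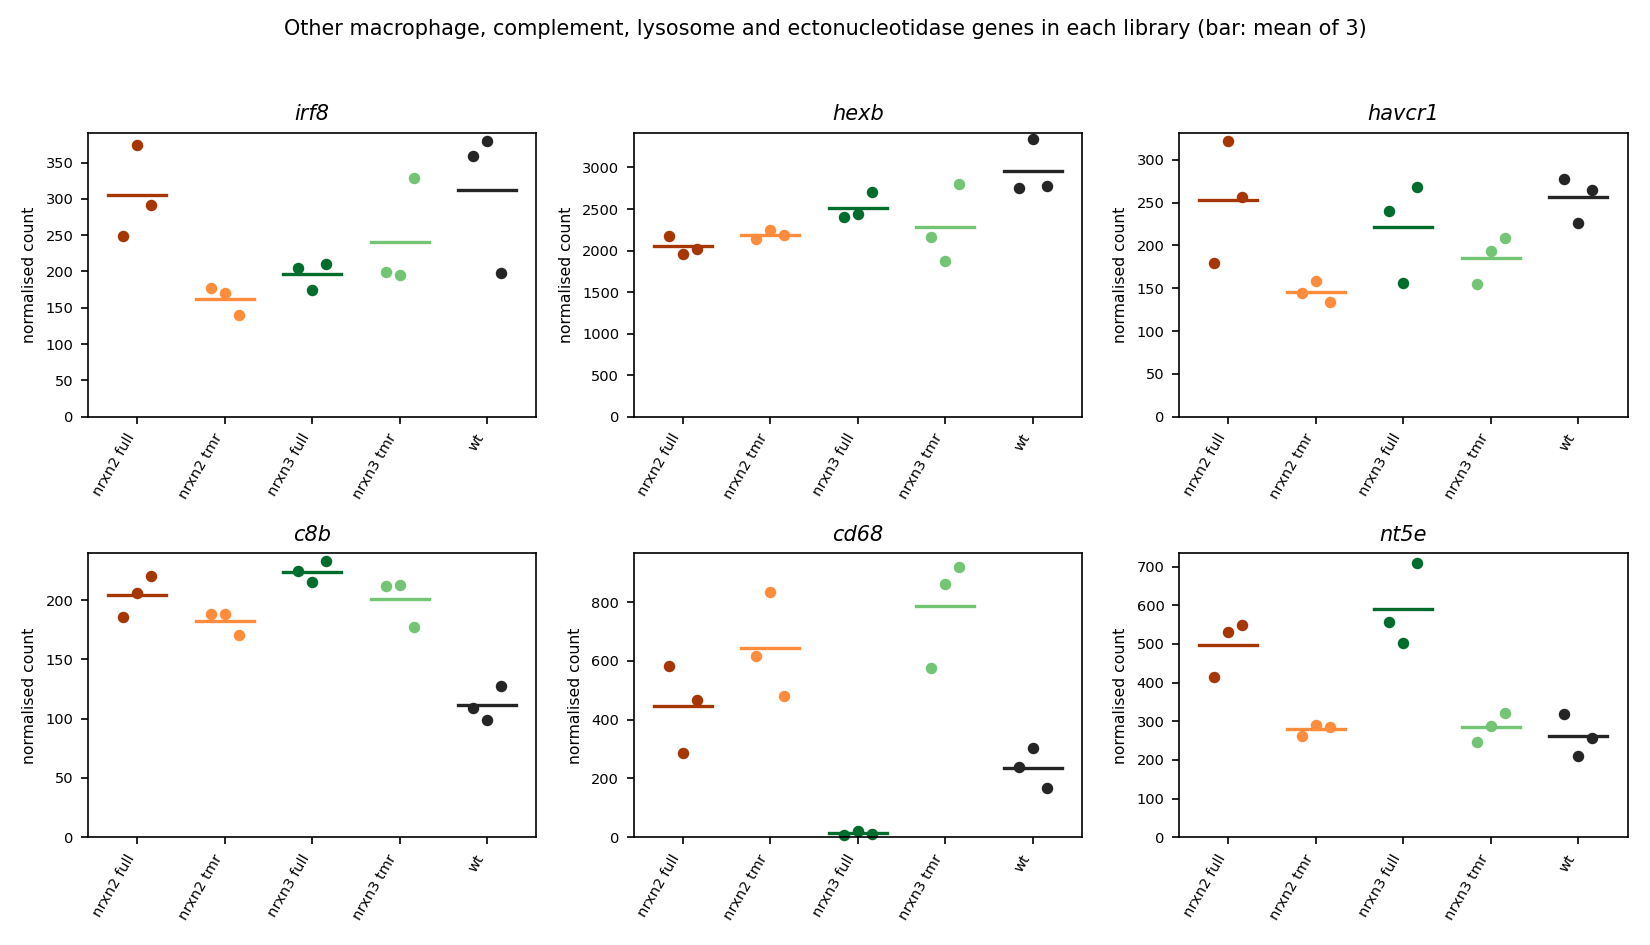
Normalised read counts (y axes, linear from 0, 1 panel per gene) of irf8, hexb, havcr1, c8b, cd68 and nt5e in the 15 libraries of 4 lines and wt, by genotype. Points are libraries and bars are means of 3. c8b libraries of the 4 lines lie between 171 and 233 and those of wt between 98.6 and 128, and cd68 is between 8.79 and 22.7 in nrxn3 full.

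Complement genes other than C1q were looked up as 36 symbols, of which 21 were tested. The counts called higher and lower were 4 and 0 in nrxn2 full (4.57% and 5.08% of all genes) and 2 and 1 in nrxn2 tmr (3.71% and 4.77%). They were 3 and 0 in nrxn3 full (3.95% and 4.19%) and 1 and 1 in nrxn3 tmr (3.61% and 3.71%). c8b, a chain of the membrane attack complex, was called higher in all 4 lines. It had 225, 215 and 233 normalised counts in nrxn3 full, against 109, 98.6 and 128 in wt, and no library of the 4 lines reached down to wt. The log2 fold changes lay between 0.71 in nrxn2 tmr (adjusted p = 0.00374) and 1.00 in nrxn3 full (adjusted p = 0.000172). Since these comparisons share the wt libraries, they are not separate observations. Against the same wider control, the c8b call was lost in nrxn2 full (adjusted p = 0.287), nrxn2 tmr (1.0) and nrxn3 tmr (0.34) and held in nrxn3 full. calr, which encodes the chaperone calreticulin, was lower in nrxn2 tmr, at 5522, 5757 and 5510, against 8237, 8219 and 9063 in wt (log2 fold change -0.60, adjusted p = 0.0017). It was also called lower in nrxn3 tmr, at 5717, 6040 and 6672 (-0.47, adjusted p = 0.0109), a call lost without nrxn3 tmr replicate 3. nrxn2 full over nrxn2 tmr gave 0.51 for calr (adjusted p = 0.00553). The C3 genes, c3a and c3b, are near copies that may have lost reads in the counting, so most of their calls against wt are left aside. They are included in the counts called above, and apart from them c8b was the only complement gene called higher in these lines. c3b.1 had 488, 176.8 and 394.5 normalised counts in nrxn2 full, against 24.4, 25.8 and 43.25 in wt. Its call against wt held in 14 of 14 alternatives in nrxn2 full and in 5 of 14 in nrxn3 full.

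Of 38 symbols of phagocytosis and lipid handling, 29 identifiers were tested. cd68, a lysosomal glycoprotein of macrophages, was called in opposite directions. nrxn3 full had 8.79, 22.7 and 10.8 normalised counts and nrxn3 tmr 578, 862 and 921, against 239, 303 and 167 in wt. The log2 fold changes were -4.05 in nrxn3 full (SE 0.36, adjusted p = 6.64e-07) and 1.74 in nrxn3 tmr (SE 0.31, adjusted p = 0.00163). The call in nrxn3 tmr was lost with the wider control (adjusted p = 0.0779). cd68 was also higher in nrxn2 tmr (1.45). lipa, the lysosomal acid lipase, was called higher in nrxn2 full (0.39), nrxn3 full (0.47) and nrxn3 tmr (0.40). The lipa calls in nrxn2 full and nrxn3 tmr were lost without wt replicate 1 or wt replicate 5, that in nrxn2 full also without its replicate 3 and that in nrxn3 tmr without its replicate 3 or 5, and all 3 were lost with the retina covariate and with the wider control (adjusted p = 0.512 in nrxn2 full, 0.135 in nrxn3 full and 0.423 in nrxn3 tmr).

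Beside p2ry12, 8 identifiers of purinergic receptors and ectonucleotidases were tested. nt5e, the ectonucleotidase CD73 that makes adenosine outside cells, was the one called. nrxn3 full had 557, 501 and 709 normalised counts and nrxn2 full 415, 530 and 549, against 318, 210.1 and 256 in wt. Neither line overlapped wt, with log2 fold changes of 1.17 in nrxn3 full (SE 0.15, adjusted p = 0.000101) and 0.93 in nrxn2 full (SE 0.15, adjusted p = 0.000918). The tmr lines of the same neurexins had 247, 287 and 321 in nrxn3 tmr and 261, 291 and 284 in nrxn2 tmr. Full over tmr gave 1.05 for nrxn3 (adjusted p = 0.000349) and 0.84 for nrxn2 (adjusted p = 0.00212).

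Of the inflammatory cytokines and chemokines 14 were tested, and each of the 4 lines had 1 called higher, beside 3.61% to 4.57% of all genes. il1b, the cytokine interleukin 1 beta, had 98.6, 92.0 and 77.9 normalised counts in nrxn3 full, against 20.3, 22.3 and 14.1 in wt (log2 fold change 2.24, adjusted p = 0.0445). The chemokine cxcl8b.1 was called higher in nrxn2 full (3.58) and nrxn3 tmr (3.02), with 3.05 to 3.76 counts in wt. The transforming growth factor tgfb1a was called higher in nrxn2 tmr (0.54, adjusted p = 0.0303). None of these calls held in every alternative: il1b in nrxn3 full held in 5 of 14 and tgfb1a in 6 of 14. The cxcl8b.1 call held in 11 of 13 for nrxn2 full and 3 of 13 for nrxn3 tmr. Each call was lost without wt replicate 1, and that of il1b without any 1 library of either group.

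Markers of other cells that carry some of these genes were read in the same libraries. Summed neutrophil markers were 293 to 678 in nrxn2 tmr and 380 to 623 in nrxn2 full, against 946 to 1493 in wt, and both lines lay wholly below wt. Summed B cell markers were 89.8 to 157 in nrxn3 full, against 119 to 144 in wt. Erythrocyte markers were 10109 to 15351 in nrxn3 full, 12241 to 22252 in nrxn2 tmr and 13398 to 20446 in nrxn3 tmr. They were 22827 to 34213 in wt, so these lines lay wholly below wt, while nrxn2 full overlapped it. No neutrophil marker of the 3 tested was called in these lines against wt. Their median log2 fold change was 0.04 in nrxn2 full and -0.27 in nrxn2 tmr, so most of the 3 did not share the lower sum of nrxn2 full. Of 6 erythrocyte markers, 1 was called lower in nrxn3 full and 0 were called in the other lines. Radial astroglia markers, of cells that may also make apolipoprotein E, were 40573 to 49326 in nrxn2 full, against 28800 to 36518 in wt, with 1 of 4 called higher. That marker, s100b, made up most of the sum, at 35680, 44080 and 42800 in nrxn2 full, against 31670, 26230 and 24880 in wt. Its call held in 7 of 14 alternatives, and the median log2 fold change of the list was 0.10. Thrombocyte markers were 224 to 291 in nrxn2 tmr and 493 to 503 in nrxn3 tmr, against 318 to 471 in wt. Of 4 tested, 1 was called lower in nrxn2 tmr, gp1bb, a call that held in 7 of 14 alternatives, and 0 were called in nrxn3 tmr. gp1bb made up most of the sum in nrxn3 tmr, at 326, 350 and 362. The median log2 fold change of the list was -0.15 in nrxn2 tmr and -0.02 in nrxn3 tmr. The part of these cells in the member values was not tested.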

How the data were processed

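Poly(A) RNA of adult zebrafish whole brains was sequenced on an Illumina platform with a stranded mRNA kit. The authors deposited raw read counts per gene, made, per their methods and the submitters' processing notes, with FastQC 0.11.9, MultiQC 1.9, Trimmomatic 0.39 and STAR 2.7.11b against GRCz11. STAR counts only reads placed uniquely on 1 gene, so near copies may lose reads. The sources used here do not say which strand column was taken, so overlapping and antisense genes are uncertain. Totals were 28512102 to 39342435 counts per library (median 34067412).

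From these counts, 29201 of 37241 identifiers were given a symbol, and 23641 genes that reached 10 counts in 3 or more libraries entered edgeR 4.0.16 (R 4.3.3), using glmQLFit and glmQLFTest on all 24 libraries with DESeq2 1.42.0 size factors and Benjamini-Hochberg adjustment. Tests were checked on simulated data in which all genes had the same setting of spread and only genes with a mean of at least 50 were changed. That check does not cover the members with few reads. The alternatives were TMM factors, DESeq2's test, no filter, at least 50 counts, only the 2 groups compared, a wider control, a replicate block, each library left out, and a retina marker covariate (log2 of the sum of 5 markers), the last chosen after the data were seen. Members and lists were chosen with earlier results of these data known. Named genes are all members and the list genes called in a comparison (up to 4 a list), of which a selection is described. Also named are the 3 genes most correlated with each well-counted member, among the genes searched. Intervals on summed reads are exact Poisson intervals. A planned motif search in promoters was not run. The fit held all 24 libraries, and some of its comparisons and 1 marker are not reported here.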

Additional observations from a re-analysis of the deposited data

Results flagged for a closer look

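Of 128 identifiers tested in the 6 gene lists around the markers, 16 differed between nrxn2 full and nrxn2 tmr (12.5%, beside 11.9% of all genes) and 8 between nrxn3 full and nrxn3 tmr (6.25%, beside 4.77%), by the edgeR test of that difference with Benjamini-Hochberg adjustment over all genes. The lists left out the members, of which 0 of the 8 tested were called in either comparison. The naming rule gave 14 genes for nrxn2 and 8 for nrxn3. For nrxn2, log2 differences of full over tmr were 5.51 for ncf4 (adjusted p = 1.16e-05), 0.91 for irf8 (0.0163), 0.84 for nt5e (0.00212), 0.82 for laptm5 (0.0171), 0.78 for havcr2 (0.0206), 0.60 for cebpb (0.00948), 0.56 for abca1b (0.0226), 0.43 for ctsz (0.0109), 0.51 for calr (0.00553), 1.74 for il12ba (0.00462) and -7.20 for tspan36 (0.00718), which is no bound since nrxn2 full had at most 1 read per library. The C3 genes are near copies that may have lost reads in the counting, and gave 3.77 for c3b.1 (0.00712), 4.55 for c3a.6 (0.0127) and -2.78 for c3a.2 (0.0169). laptm5, a lysosomal membrane protein of leukocytes, had 289, 282 and 259 normalised counts in nrxn2 full, against 127, 205 and 137 in nrxn2 tmr. Of these nrxn2 calls, those of ncf4, nt5e, calr and c3b.1 held in 13 of 13 alternatives. Those of abca1b and c3a.2 held in 8 of 13, that of havcr2 in 9 of 13 and that of laptm5 in 10 of 13.

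For nrxn3, the differences of full over tmr were -5.79 for cd68 (adjusted p = 1.2e-08), 1.05 for nt5e (0.000349), -0.84 for ccl34b.1 (0.046), -4.23 for ccl38a.4 (0.0471), 1.92 for c3b.2 (0.0358), -0.52 for plcg2 (0.0174) and -0.33 for syk (0.00448). For tspan36 the fitted difference was 9.12 (0.0136), which is no bound because all 3 nrxn3 tmr libraries were listed at 0. The kinase syk had 1530, 1560 and 1528 normalised counts in nrxn3 full, against 1942, 2065 and 1816 in nrxn3 tmr. Of these nrxn3 calls, those of cd68, nt5e and syk held in 13 of 13 alternatives and that of plcg2 in 10 of 13. ccl34b.1 held in 6 of 13, ccl38a.4 in 5 of 13 and c3b.2 in 4 of 12. The ccl38a.4 call was lost without any 1 library of either line. The causes of these differences were not tested.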

How the results depend on the processing

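Of 620 values of the members under the alternatives, 617 kept their side of the threshold and 3 gained a call, all of csf1ra. As no member was called in these comparisons, none could lose a call. The count of members called was 1 in nrxn3 full against wt with DESeq2, beside 11.6% of all genes. Leaving out 1 library gave counts from 0 to 1 in nrxn2 full and in nrxn3 full against wt. The count of 1 came without nrxn2 full replicate 1, where 4558 of 23563 genes were called, against 2282 of 23641 with all libraries. It also came without nrxn3 full replicate 4, where 1243 of 23572 genes were called, against 1923 of 23641. With the wider control of wt and the lines of other neurexins, the csf1ra change was uncalled in all 4 lines, at 0.12 in nrxn2 full, 0.11 in nrxn2 tmr and 0.34 in nrxn3 tmr, all negative against wt alone, and at -0.21 in nrxn3 full. Replicate numbers did not pair the libraries: deviations of same-numbered libraries had a median correlation of -0.01 over 53 pairs. With the replicate block 0 members were called in these comparisons, and csf1ra in nrxn3 full stood at -0.70 (adjusted p = 0.0885). c1qa, c1qb, slc7a7 and p2ry12 had few reads, which widens their counting intervals, and the effect of depth on their tests was not tested. The causes of the gained calls were not tested.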
